A study of Schizosaccharomyces pombe with 7 samples.

Results

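The 2 ends of chromosome 3 of the fission yeast Schizosaccharomyces pombe were taken as the array probes that lie under position 100000 (the left end) or in the last 100 kb up to the last probe at 2453700 (the right end) in the array's own numbering. Of the 41551 genomic probes of the array, 610 lie there, 304 at the left end and 306 at the right end. Each probe is a 60-mer, and probes lie on a grid with steps of 300 bp, not every step of which holds a probe. The histone mark H3K9me2 was measured by chromatin immunoprecipitation in fft3∆ cells, which lack the gene fft3 (2 arrays, series 2 and 3), in cells of the genotype UV21 (1 array, series 1) and in WT cells (3 arrays, series 1, 2 and 3). A GFP antibody was used once, on cells labelled as WT, to locate the tagged protein Fft3-GFP. The labels do not say what UV21 is, how many clones of each strain were grown, or whether the series are separate cultures, so p-values measure only the spread between these arrays. All strains were in logarithmic growth in rich YEA medium at 30 °C and were fixed with 3% paraformaldehyde. The cells for Fft3-GFP were first kept at 18 °C for 6 h and were treated with 10 mM dimethyl adipimidate, a protein crosslinker, after fixation. On each of the 7 arrays the precipitated DNA was labelled with the dye Cy5 and the DNA of the whole-cell extract, the input, with Cy3.

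H3K9me2 is dimethylation of a lysine in the tail of histone H3. In fission yeast the methyltransferase Clr4 places it, and chromodomain proteins such as Swi6 bind it to form heterochromatin, the silent chromatin of pericentromeres, of the mating-type locus, of subtelomeres and of ribosomal DNA (rDNA). Both ends of chromosome 3 are made of tandem rDNA repeats, whereas the ends of chromosomes 1 and 2 carry subtelomeric genes. Each rDNA unit holds the 18S, 5.8S and 28S ribosomal RNA genes with internal transcribed spacers between them, and an intergenic spacer separates it from the next unit. Most rRNA gene copies are transcribed by RNA polymerase I, and a share of the copies is kept silent. Fft3 is an ATP-dependent chromatin remodeller of the Fun30 family within the Snf2 group of enzymes.

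The sequences that frame these results are shown from the RefSeq assembly ASM294v3. In it the left rDNA ends at base 24570 and the right rDNA begins at base 2439555, in opposite orientations. The next 120 bases run across each edge, read from rDNA into the chromosome, with the last 60 bases of rDNA in capitals and the first 60 bases beyond them in lower case.
Left rDNA edge (chr3:24511-24630, + strand): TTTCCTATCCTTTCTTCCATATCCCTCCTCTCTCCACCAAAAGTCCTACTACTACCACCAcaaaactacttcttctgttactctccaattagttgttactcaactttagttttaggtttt
Right rDNA edge (chr3:2439495-2439614, − strand): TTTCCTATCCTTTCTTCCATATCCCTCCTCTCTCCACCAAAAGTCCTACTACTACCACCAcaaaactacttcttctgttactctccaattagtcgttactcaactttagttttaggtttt
The 197 bases of rDNA before the edge are identical at both ends, and so are the first 33 bases beyond it. The following 2 sequences are the first 120 bases of a noncoding RNA gene in the intergenic spacer, where the WT mean of H3K9me2 was highest, and of an 18S rRNA gene.
SPNCRNA.6666 start (chr3:4788-4907, − strand): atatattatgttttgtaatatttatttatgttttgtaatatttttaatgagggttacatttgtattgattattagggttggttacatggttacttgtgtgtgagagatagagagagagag
SPRRNA.43 (18S) start (chr3:12141-12260, − strand): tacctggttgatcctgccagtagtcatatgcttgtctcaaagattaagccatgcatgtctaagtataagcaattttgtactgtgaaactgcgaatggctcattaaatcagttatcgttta
The first is found 2 times in the left and 1 time in the right rDNA of the assembly, and the second 3 and 2 times. Of all 60-base stretches of the left rDNA, 99.8% occur again at one of the 2 ends. A probe therefore reads all copies of its sequence together, and the numbered copies and ends below are positions of probes, not of single repeats. The last sequence comes from mug9, the protein-coding gene of the right end at which H3K9me2 differed most between strains. It is the last 300 bases of the 627-base coding sequence, with each TNAAAC in capitals, and it was chosen after the values had been seen.
mug9 last coding bases (chr3:2369108-2369407, − strand): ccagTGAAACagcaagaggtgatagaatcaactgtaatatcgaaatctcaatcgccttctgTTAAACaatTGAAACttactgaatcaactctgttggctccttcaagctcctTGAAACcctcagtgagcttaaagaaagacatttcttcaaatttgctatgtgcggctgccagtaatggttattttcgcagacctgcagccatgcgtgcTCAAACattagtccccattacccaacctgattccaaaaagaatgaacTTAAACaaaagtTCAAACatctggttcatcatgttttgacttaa
The stretch holds TNAAAC 7 times on the coding strand, none of them overlapping, and 0 times on the other strand. UNAAAC in RNA is the motif to which the fission yeast RNA-binding protein Mmi1 binds in meiotic transcripts. Of 4912 coding sequences of at least 300 bases, 37.9% have at least 1 TNAAAC in their last 300 bases on the coding strand and 38.9% on the other strand, and mug9 is the 1 sequence with as many as 7.

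H3K9me2 is given as log2 of Cy5 over Cy3 minus the median of the array, so that 0 is the array's median and 1 is 2-fold above it. Cy3 levels are given in the same way, without the ratio. Probes that were well above background in Cy3 and uniform on all 6 H3K9me2 arrays were kept, 250 at the left end and 245 at the right end. All 610 probes were well above background in Cy3 on all 7 arrays. Spots of whole arrays exceeded their local background by a median factor of 19.7 to 219 in Cy3 and 22.8 to 100.3 in Cy5. WT series 3 stood apart, with 12.31% non-uniform and 3.79% saturated probes over the whole array, and it was the only array with saturated spots at these ends. Its Cy3 was saturated at 16 left and 6 right probes and its Cy5 at 32 left and 9 right probes. As a check of the labels, the Cy3 level over the 12 probes of fft3 was −6.84 and −6.46 in fft3∆, −0.45 in UV21 and −0.37, −0.81 and −0.60 in WT, so the gene was missing in both arrays labelled fft3∆ and present in the rest. Bulk chromatin cannot tell fewer cells with the mark from less mark per cell.

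H3K9me2 at both ends of chromosome 3 lay in the rDNA and fell to near the array median within a few probes of its edge. Over the 55 kept rDNA probes of the left end, H3K9me2 averaged 2.39 and 2.14 in fft3∆, 2.09 in UV21, and 1.70, 2.32 and 3.54 in WT, which correspond to 5.25- and 4.42-fold, 4.27-fold, and 3.25-, 4.98- and 11.6-fold enrichment over the array median. The fft3∆ and UV21 arrays lay between the lowest and the highest WT array. Over the 195 kept probes of the left end beyond the rDNA it averaged −0.28 and −0.04 in fft3∆, −0.12 in UV21, and −0.04, −0.18 and −0.11 in WT. The right end showed the same arrangement. Its 17 kept rDNA probes averaged 2.50 and 2.33 in fft3∆, 2.27 in UV21, and 1.78, 2.31 and 3.58 in WT, while its 227 kept probes beyond the rDNA averaged −0.20 and 0.01, −0.11, and 0.01, −0.04 and 0.01 in the same groups and order. The rDNA exceeded the DNA beyond it on every array: by 2.67 and 2.18 in fft3∆, 2.21 in UV21, and 1.74, 2.50 and 3.65 in WT at the left end, and by 2.71 and 2.33, 2.38, and 1.77, 2.35 and 3.56 at the right end. The profiles by distance from each end show this edge.

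**Figure D1:**
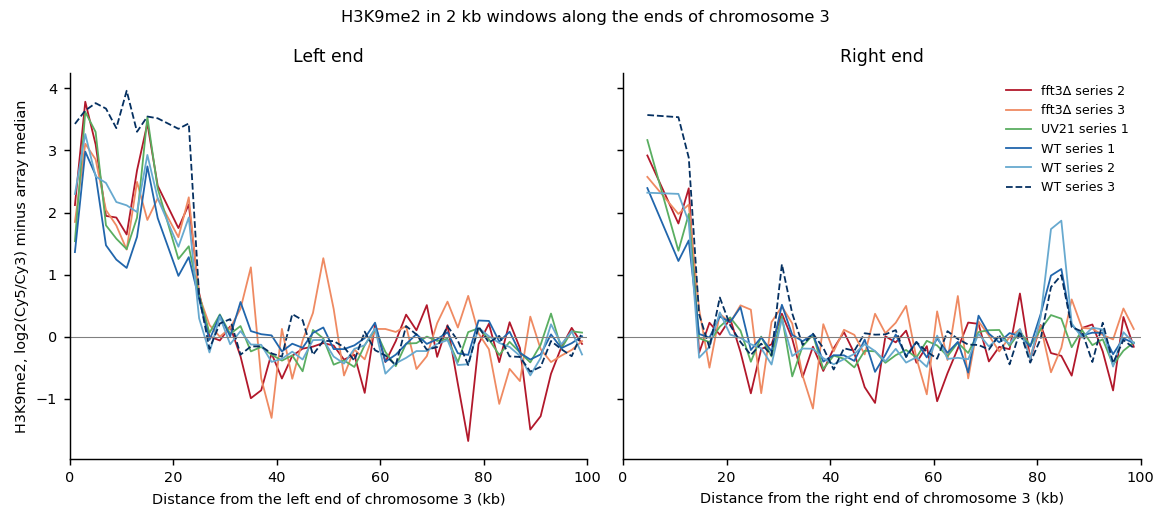
H3K9me2 (log2 Cy5/Cy3 minus the array median, vertical axis) in windows of 2 kb against distance from the left end and from the right end of chromosome 3 (kb, horizontal axis), with 1 line for each fft3∆, UV21 and WT array. Values lie mostly between 1 and 4 in the rDNA and scatter around 0 beyond it on all arrays, with a short WT rise near 84 kb from the right end.

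Between strains, the rDNA levels of fft3∆ and UV21 lay within the range of the WT arrays, whose upper end was set by WT series 3. The remaining WT arrays, series 1 and 2, were at 1.70 and 2.32 at the left and 1.78 and 2.31 at the right end. Both fft3∆ arrays (2.50 and 2.33) were above these at the right end, and fft3∆ series 2 (2.39) was at the left end. UV21 (2.09 left, 2.27 right) lay between them. At the left end the fft3∆ mean was 2.27 ± 0.18 (SD, n = 2) and the WT mean 2.52 ± 0.93 (SD, n = 3), a difference of −0.25. At the right end the means were 2.42 ± 0.12 (SD, n = 2) and 2.56 ± 0.92 (SD, n = 3), a difference of −0.14. UV21 differed from the WT mean by −0.43 at the left and −0.29 at the right end. These signs rest on WT series 3: without it, fft3∆ was above the WT mean by 0.26 (left) and 0.37 (right), and UV21 by 0.08 and 0.22. Against WT series 1, the WT array of its own series, UV21 was higher at both ends, with 2.09 against 1.70 (left) and 2.27 against 1.78 (right). Of the 14 windows of 2 kb that touch the rDNA, 0 were called different between fft3∆ and WT by limma at an adjusted p under 0.05, where 5.22% of all windows were called lower and 0.113% higher in fft3∆, and 0 had an unadjusted p under 0.05, against 19.1% of all windows.

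Single rDNA probes were enriched nearly throughout. Of the 55 left rDNA probes, 52 were more than 2-fold above the array median on both fft3∆ arrays, 53 on the UV21 array, and 48 on all 3 WT arrays. Of the 17 right rDNA probes the numbers were 17, 16 and 14. Beyond the rDNA the numbers were 1, 1 and 0 of 195 at the left end and 2, 2 and 5 of 227 at the right end. These counts require both arrays, 1 array and all 3 arrays, so they cannot be compared between strains. Array by array, the left counts beyond the rDNA were 2 and 17 in fft3∆, 1 in UV21 and 1, 0 and 2 in WT. The right counts were 4 and 13 in fft3∆, 2 in UV21 and 7, 12 and 12 in WT. Of the windows, 11 left and 5 right ones had a WT mean more than 2-fold above the median, 16 of 95 in all, where 8.7% of all 6193 windows of the genome did. The left 11 and 3 of the right 5 touched the rDNA.

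The left rDNA, where probes could be placed within the unit of 10870 bp, showed an uneven profile. The intergenic spacer averaged 3.02 and 2.58 in fft3∆, 2.74 in UV21, and 2.21, 2.41 and 3.51 in WT over 24 probes. The 18S gene, the RNA of the small ribosomal subunit, averaged 1.93 and 1.83 in fft3∆, 1.59 in UV21, and 1.35, 2.52 and 3.70 in WT over 10 probes. The 28S gene, the main RNA of the large subunit, averaged 2.0 and 2.03 in fft3∆, 1.79 in UV21, and 1.47, 2.52 and 3.57 in WT over 15 probes. The spacer was thus above both genes in fft3∆, UV21 and WT series 1 and slightly below them in WT series 2 and 3. The internal transcribed spacers with the 5.8S gene were the lowest stretch on every array, with 1.62 and 1.19 in fft3∆, 1.11 in UV21, and 0.83, 1.07 and 3.28 in WT over 6 probes.

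Measured within each array, the intergenic spacer minus the 18S gene was 1.09 and 0.75 in fft3∆, 1.15 in UV21 and 0.86, −0.11 and −0.18 in WT. Against the 28S gene the difference was 1.02 and 0.54 in fft3∆, 0.94 in UV21 and 0.74, −0.11 and −0.06 in WT. Both fft3∆ arrays and UV21 were positive, while the WT arrays fell on both sides of 0. Against the internal transcribed spacers it was 1.41 and 1.39 in fft3∆, 1.62 in UV21 and 1.38, 1.34 and 0.24 in WT, positive on every array. At the right end placement was too uncertain to divide the genes, and all spacers, internal ones included, were set against the rRNA genes. That difference, which rests on the same uncertain placement, was 0.84 and 0.36 in fft3∆, 0.92 in UV21 and 0.63, −0.16 and 0.07 in WT. Taken in the same way, the left end had 0.77 and 0.35 in fft3∆, 0.70 in UV21 and 0.51, −0.38 and −0.16 in WT. The Cy3 level entered these differences: over the internal transcribed spacers it was 1.06 and 0.70 in fft3∆, 0.03 in UV21 and 0.35, 0.47 and −2.06 in WT, and its part in the ratio was not tested.

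**Figure D2:**
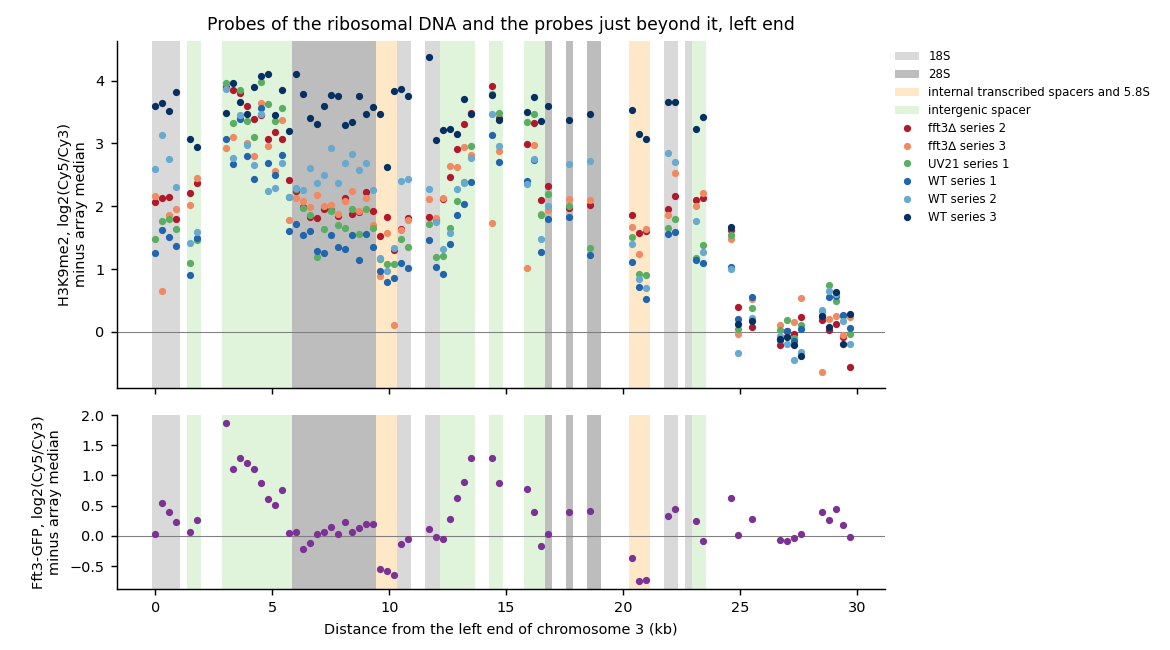
Values of single kept probes (log2 Cy5/Cy3 minus the array median) against distance from the left end (kb), with H3K9me2 of the fft3∆, UV21 and WT arrays above and Fft3-GFP below. Shading marks the parts of the rDNA unit. H3K9me2 exceeds 2 over most of the intergenic spacer, and Fft3-GFP reaches 1.87 there and is below 0 over the internal transcribed spacers.

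Within the spacer the signal was highest in its middle. The window at 2000 to 3999, the highest of the left end in WT, had 3.79 and 3.11 in fft3∆, 3.62 in UV21, and 2.98, 3.27 and 3.64 in WT. The next in WT were the window at 14000 to 15999, in the second copy of the spacer, with 3.44 and 1.88 in fft3∆, 3.54 in UV21, and 2.74, 2.93 and 3.55 in WT, and the window at 4000 to 5999, with 3.1 and 2.86 in fft3∆, 3.30 in UV21, and 2.60, 2.58 and 3.76 in WT. In all 3 the groups overlapped, in the window at 4000 to 5999 through WT series 3 alone. The first copy of the spacer (1500 to 5700) averaged 3.19 and 2.84 in fft3∆, 3.07 in UV21 and 2.50, 2.63 and 3.60 in WT. The second copy (12300 to 16500) averaged 3.00 and 2.36 in fft3∆, 2.63 in UV21 and 2.08, 2.33 and 3.45 in WT. The last 2 spacer probes before the edge (23100 and 23400) were lower on every array, with 2.12 and 2.11 in fft3∆, 1.28 in UV21 and 1.13, 1.52 and 3.32 in WT. At the right end the highest WT window lay at 2448000 to 2449999, in the spacer, with 2.92 and 2.57 in fft3∆, 3.17 in UV21 and 2.39, 2.32 and 3.57 in WT. The next in WT there were the window at 2442000 to 2443999, placed over rRNA gene sequence, with 1.82 and 1.98 in fft3∆, 1.38 in UV21 and 1.22, 2.30 and 3.54 in WT, and the window at 2440000 to 2441999, across the rDNA edge, with 2.39 and 2.13 in fft3∆, 1.98 in UV21 and 1.55, 1.85 and 2.88 in WT. On these windows too the groups overlapped. In those at 2448000 and 2440000 this rested on WT series 3 alone, as both fft3∆ arrays were above WT series 1 and 2.

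The 3 noncoding RNA genes of the spacer, of no described function in the annotation used, had the highest WT means of H3K9me2 of all genes tested at these ends. They are not 3 separate readings: SPNCRNA.6666 and SPNCRNA.6668 share probes, and SPNCRNA.6673 lies in the second copy of the spacer. SPNCRNA.6666 (− strand, 5 probes from 3300 to 4500), whose first bases are printed above, had 3.62 and 3.19 in fft3∆, 3.52 in UV21, and 2.97, 3.06 and 3.81 in WT. SPNCRNA.6668 (+ strand, probes from 4200 to 4800) had 3.31 and 3.14 in fft3∆, 3.57 in UV21, and 2.90, 2.79 and 4.03 in WT. SPNCRNA.6673 (probes at 14400 and 14700) had 3.66 and 2.31 in fft3∆, 3.63 in UV21, and 2.92, 3.22 and 3.57 in WT. All 3 overlapped between strains. At SPNCRNA.6666 and SPNCRNA.6668 the overlap rested on WT series 3 alone, as both fft3∆ arrays were above WT series 1 and 2. For SPNCRNA.6666 fft3∆ minus WT was 0.12 (limma, adjusted p = 0.866).

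The rRNA genes did not pass the test between strains. Of the 7 rRNA genes with at least 2 kept probes (5 left, 2 right), 0 were called by limma, where 4.68% of all 8674 genes tested were called lower and 0.0922% higher in fft3∆, and 0 had an unadjusted p under 0.05, against 19.6% of all genes. Their fft3∆ means lay between 1.80 and 2.29 and their WT means between 2.35 and 2.67, and fft3∆ minus WT lay between −0.75 and −0.32. The 28S gene SPRRNA.47 had 1.97 and 2.03 in fft3∆, 1.78 in UV21 and 1.44, 2.53 and 3.60 in WT (difference −0.52, limma, adjusted p = 0.673). The 18S gene SPRRNA.43 had 1.77 and 1.83 in fft3∆, 1.44 in UV21 and 1.15, 2.22 and 3.77 in WT (difference −0.58, limma, adjusted p = 0.698). For both genes the fft3∆ arrays lay between WT series 1 and WT series 2, and without WT series 3 the differences were 0.02 and 0.11. The remaining 18S genes, SPRRNA.42 and SPRRNA.44 on the left and SPRRNA.46 on the right, differed by −0.75, −0.55 and −0.45, and the remaining 28S genes, SPRRNA.48 (left) and SPRRNA.49 (right), by −0.44 and −0.32 (limma, adjusted p from 0.539 to 0.778). Which right probes belong to SPRRNA.46 and which to SPRRNA.49 is uncertain.

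The whole-cell extract signal of the outermost probes was above the array median at both ends on all arrays. Among the 10 outermost probes of the left end, which reach 3900 bp inwards, the median Cy3 signal was 5.53 and 5.16 times the array median in fft3∆, 2.61 times in UV21, 3.08, 6.28 and 2.38 times in WT, and 7.10 times on the Fft3-GFP array. Single probes ranged from 2.52 to 9.16 and 1.02 to 12.6 times in fft3∆, 0.381 to 10.1 times in UV21, and 0.526 to 15.1, 1.58 to 13.5 and 0.376 to 2.72 times in WT. Among the 10 outermost probes of the right end, which reach 7800 bp inwards, the medians were 5.20 and 6.01 times in fft3∆, 4.15 times in UV21, 5.57, 6.71 and 1.93 times in WT, and 7.14 times on the Fft3-GFP array. WT series 3 was the lowest array at both ends and the one with saturated Cy3 spots, whose true level is at least the one read. The remaining arrays spread over 2.61 to 7.10 times at the left and 4.15 to 7.14 times at the right end. H3K9me2 over the same 10 left probes had medians of 2.29 and 2.30 in fft3∆, 1.78 in UV21 and 1.57, 2.76 and 3.55 in WT, and over the 10 right probes 2.62 and 2.38, 2.65, and 2.04, 2.41 and 3.54.

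**Figure D3:**
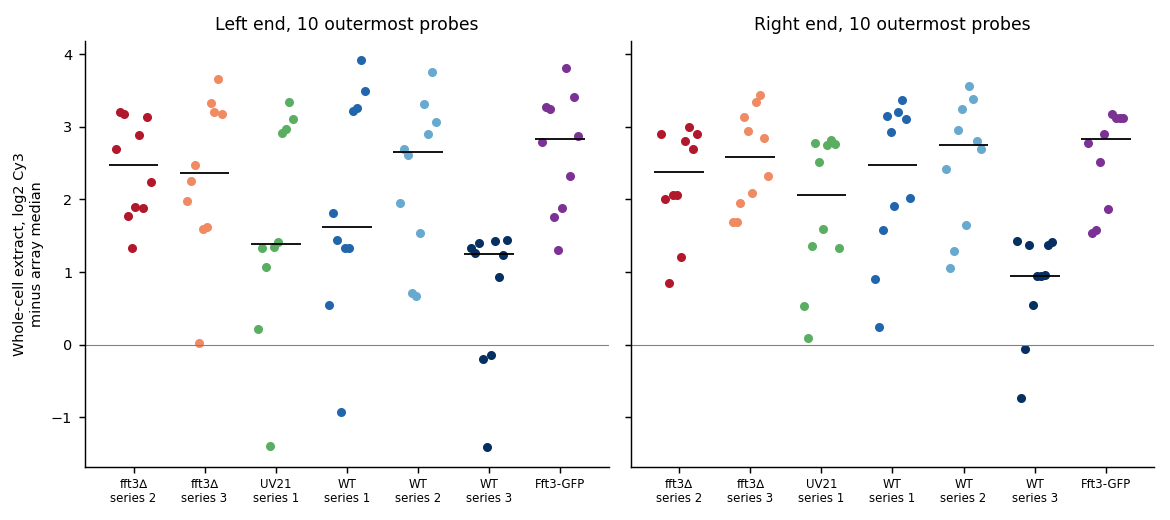
Level of whole-cell extract DNA (log2 Cy3 minus the array median, vertical axis) of the 10 outermost probes of each end (points), with their median (bars), for each of the 7 arrays. Most points lie above 0, and those of WT series 3 do not exceed 1.45 at the left or 1.42 at the right end.

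Over all kept rDNA probes the Cy3 level was 2.16 and 2.04 in fft3∆, 1.41 in UV21 and 1.74, 1.97 and 0.50 in WT at the left end. At the right end it was 2.07 and 2.07 in fft3∆, 1.30 in UV21 and 1.67, 2.03 and 0.64 in WT. Both fft3∆ arrays were above all WT arrays at both ends, by a small margin over WT series 2. The Cy5 level of the left rDNA was 4.55 and 4.19 in fft3∆, 3.50 in UV21 and 3.40, 4.21 and 3.99 in WT, so that WT series 3, with the highest ratio, had the lowest Cy3 level. Over the rRNA genes alone the left Cy5 level was 4.60 and 3.88 in fft3∆, 2.76 in UV21 and 2.86, 4.51 and 4.70 in WT, highest in WT series 3. Over the spacers, internal ones included, it was 4.50 and 4.45 in fft3∆, 4.12 in UV21 and 3.85, 3.96 and 3.39 in WT, lowest in WT series 3. Its saturated spots, 32 in Cy5 and 16 in Cy3 among all left probes, have true levels at least as high as those read. Of the 95 windows at these ends, 0 were called different in Cy3 between fft3∆ and WT by limma (0% of all windows). At an unadjusted p under 0.05 limma counted 4, against 1.95% of all windows. All of them were higher in fft3∆ and lay among the 11 windows of the left rDNA, which hold copies of the same unit. Whether the Cy3 level sets the order of the ratios was not tested.

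At the rDNA edges the signal dropped over 2 or 3 probes. At the left end the last kept rDNA probe (23400) had 2.13 and 2.21 in fft3∆, 1.38 in UV21 and 1.1, 1.27 and 3.41 in WT. The first probe beyond the edge (24600) had 1.63 and 1.49 in fft3∆, 1.54 in UV21 and 1.02, 1.0 and 1.67 in WT. The next one (24900) had 0.39 and −0.04 in fft3∆, 0.04 in UV21 and 0.21, −0.34 and 0.12 in WT. Every array was thus within 0.4 of its median at the second probe past the edge, fft3∆ and UV21 included. At the right end, going inwards, probe 2440500 had 3.50 and 2.63 in fft3∆, 3.04 in UV21 and 2.32, 2.78 and 3.53 in WT. Probe 2440200 had 1.61 and 1.15 in fft3∆, 1.35 in UV21 and 1.19, 1.13 and 1.28 in WT, and probe 2439900 had 0.56 and 0.31 in fft3∆, 0.27 in UV21 and 0.43, −0.15 and 0.01 in WT. The signal thus dropped over a few probes at both ends, whose edges share the sequences printed above.

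Next to the rDNA both ends carry a block of DNA that is largely repeated at the other end, 11157 bp long at the left and 11442 bp at the right. At the left end its 29 kept probes averaged −0.13 and 0.40 in fft3∆, 0.14 in UV21 and 0.23, 0.01 and 0.07 in WT. At the right end its 29 kept probes averaged −0.07 and 0.30 in fft3∆, 0.05 in UV21 and 0.20, −0.03 and 0.17 in WT. The fft3∆ arrays lay on either side of the WT arrays at both ends. The single-copy DNA inwards of it averaged −0.31 and −0.11 in fft3∆, −0.16 in UV21 and −0.08, −0.22 and −0.14 in WT at the left end (166 kept probes), and −0.22 and −0.04, −0.13, and −0.02, −0.04 and −0.01 at the right end (198 kept probes). Every probe of the rDNA and of the shared block, 144 in all, bears a name ending in f, a suffix that 14 further probes at these ends share and whose meaning is not given in the sources used here.

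Taken whole, the ends differed by at most 0.12 between strain means, in a design too small for any difference of end means to pass 0.05. The left end averaged 0.31 and 0.44 in fft3∆, 0.37 in UV21, and 0.34, 0.37 and 0.69 in WT. The 2 fft3∆ arrays differed from the WT mean by −0.09 (exact permutation test over arrays, 2-sided, p = 0.8) and UV21 by −0.10 (exact permutation p = 1.0). Both fft3∆ values and the UV21 value were within or just below the WT range. The right end averaged −0.01 and 0.17 in fft3∆, 0.06 in UV21, and 0.14, 0.14 and 0.28 in WT. There fft3∆ differed by −0.10 (exact permutation p = 0.6) and UV21 by −0.12 (exact permutation p = 0.5). The UV21 array was below all 3 WT arrays there, while 1 fft3∆ array was below them and the other within their range. With 2 arrays against 3 the smallest p is 0.2, and with 1 against 3 it is 0.5. Within arrays read with extraction protocol 1105, the setting of the scanner software used for series 3, fft3∆ minus WT was −0.25 at the left and −0.10 at the right end, and within protocol 1200 it was −0.05 and −0.15.

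The ends of chromosome 3 were set against the outermost 100 kb of chromosomes 1 and 2 (1127 kept of 1233 probes), the most similar regions of the genome. The left end of chromosome 3 was below them by 0.73 and 0.70 in fft3∆, 1.52 in UV21, and 2.49, 2.04 and 2.49 in WT. The right end was below them by 1.04 and 0.97 in fft3∆, 1.82 in UV21, and 2.70, 2.27 and 2.90 in WT. The gap was smallest on the fft3∆ arrays, intermediate in UV21 and largest in WT, without overlap. In WT the difference averaged −2.34 ± 0.26 (SD, n = 3) at the left and −2.62 ± 0.33 (SD, n = 3) at the right end, negative on 3 of 3 arrays (exact sign-flip permutation test, p = 0.25, the smallest possible). The gap was narrower in fft3∆ than in WT by 1.63 at the left and 1.62 at the right end (exact permutation p = 0.2 for both, the smallest possible). The ends of chromosomes 1 and 2 themselves averaged 1.03 and 1.15 in fft3∆, 1.89 in UV21 and 2.84, 2.41 and 3.18 in WT, and these levels separated the strains where those of chromosome 3 did not.

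By distance, the 2 kinds of end had different shapes. In the outermost 10 kb the left end of chromosome 3 averaged 2.45 and 2.25 in fft3∆, 2.24 in UV21 and 1.82, 2.50 and 3.57 in WT, and the right end 2.68 and 2.39, 2.57, and 2.0, 2.45 and 3.62. The outermost 10 kb of chromosomes 1 and 2 averaged 3.70 and 4.68 in fft3∆, 4.93 in UV21 and 6.14, 5.82 and 6.10 in WT. At 40 to 50 kb the left end of chromosome 3 was at −0.29 and 0.22 in fft3∆, −0.22 in UV21 and −0.06, −0.21 and −0.01 in WT, whereas chromosomes 1 and 2 were still at 0.82 and 0.71, 1.82, and 2.80, 2.20 and 3.45. The H3K9me2 of chromosome 3 ended with its rDNA, at 20 to 30 kb on the left and 10 to 20 kb on the right, while that of chromosomes 1 and 2 declined over the whole 100 kb in WT. The only later bin with a positive WT mean on all arrays at the right end was that at 80 to 90 kb, with −0.17 and 0.03 in fft3∆, 0.14 in UV21 and 0.52, 0.80 and 0.39 in WT.

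**Figure D4:**
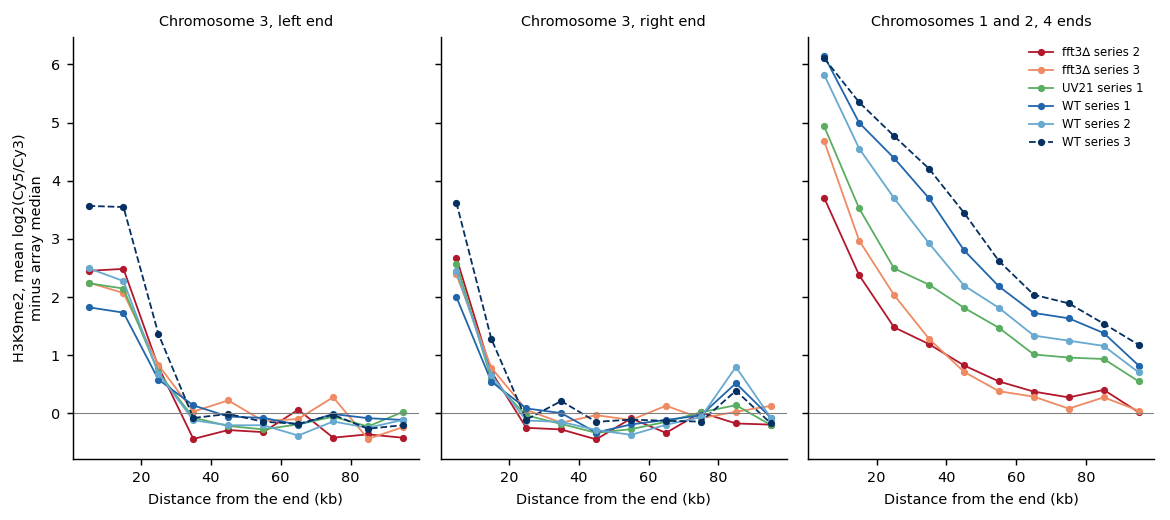
Mean H3K9me2 (log2 Cy5/Cy3 minus the array median) in bins of 10 kb from the end, for the left end of chromosome 3, the right end of chromosome 3 and the ends of chromosomes 1 and 2, by array. Chromosome 3 drops to 0 at the rDNA edge on all arrays, while the WT arrays of chromosomes 1 and 2 decline from about 6 to about 1.

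That bin held the only windows at these ends that were called different between strains. Of the 95 windows at the 2 ends, 2 were called lower in fft3∆ than in WT, against 5.22% of all 6193 windows, and 0 were called higher, against 0.113%. At an unadjusted p under 0.05 limma counted 12 windows, against 19.1% of all windows. Both fft3∆ arrays were below all WT arrays at 16 of the 95 windows, against 25.1% of all windows, and above all WT arrays at 9, against 11.6%. Both called windows were neighbours at the right end, about 84 kb from it. The window at 2368000 to 2369999 had −0.31 and −0.18 in fft3∆, 0.29 in UV21, and 1.09, 1.87 and 0.99 in WT (difference −1.56, limma, adjusted p = 0.0230). The window at 2370000 to 2371999 had −0.27 and −0.58 in fft3∆, 0.35 in UV21, and 0.98, 1.73 and 0.80 in WT (difference −1.59, limma, adjusted p = 0.0246). The fft3∆ arrays were at or below the array median, UV21 was above it and below every WT array, and the WT arrays were all clearly above it. Within protocol 1105 the differences were −1.17 and −1.37, and within protocol 1200 they were −1.79 and −1.62. Cy3 differed between fft3∆ and WT by −0.07 and 0.01 in these windows. Without WT series 1 the first was at an adjusted p of 0.0516 and the second at 0.0583 (limma). Without WT series 3 the first was at 0.0506, and without fft3∆ series 3 they were at 0.0578 and 0.0733.

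These windows hold mug9 and its neighbours. The gene mug9 (SPCC70.09c, − strand, 3 probes from 2370000 to 2370600) is named for being upregulated in meiosis. It had −0.20 and −1.07 in fft3∆ (mean −0.63 ± 0.61, SD, n = 2), 0.48 in UV21, and 1.58, 2.65 and 1.56 in WT (mean 1.93 ± 0.62, SD, n = 3). All WT arrays were above both fft3∆ arrays and the UV21 array. The difference fft3∆ minus WT was −2.57 ± 0.40 (SE, limma, adjusted p = 0.0212), and without WT series 1 or WT series 3 the adjusted p was 0.0527 or 0.0799. UV21 minus WT was −1.46 and was not called (limma). The Cy3 level of the gene was −0.25 and −0.46 in fft3∆, −0.43 in UV21 and −0.40, −0.39 and −0.03 in WT.

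The highest single probe of this stretch, 2370300 in mug9, had −0.04 and −1.57 in fft3∆, 0.62 in UV21, and 1.88, 3.18 and 2.03 in WT. SPNCRNA.1292, a noncoding RNA gene (+ strand, 4 probes from 2368500 to 2369400), had −0.10 and −0.16 in fft3∆, 0.29 in UV21 and 1.18, 2.05 and 1.08 in WT. Its difference was −1.57 ± 0.30 (SE, limma, adjusted p = 0.0369), and it was lost under 7 of 16 alternatives. It shares its probes with SPCC70.08c, a methyltransferase gene on the opposite strand (3 probes), which had 0.21 and −0.17 in fft3∆, 0.42 in UV21 and 1.25, 2.26 and 1.18 in WT and was just outside the threshold (difference −1.54, limma, adjusted p = 0.0557). A probe between these genes and mug9 (2369700), left out as non-uniform, had 0.86 and 1.99 in fft3∆, 0.77 in UV21 and 1.43, 2.23 and 2.57 in WT, so there the groups overlapped. The WT mean was 0.12 at probe 2367000 on one side and 0.11 at probe 2372400 on the other, as the plot around mug9 shows. A little further out, the 2 fft3∆ arrays parted at kept probes 2365800, 2366100 and 2366400. Series 2 had −1.18, −0.11 and −0.06 there, and series 3 had 1.92, 2.01 and 1.78. The spread between the fft3∆ arrays at single probes near mug9 could thus be large.

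**Figure D5:**
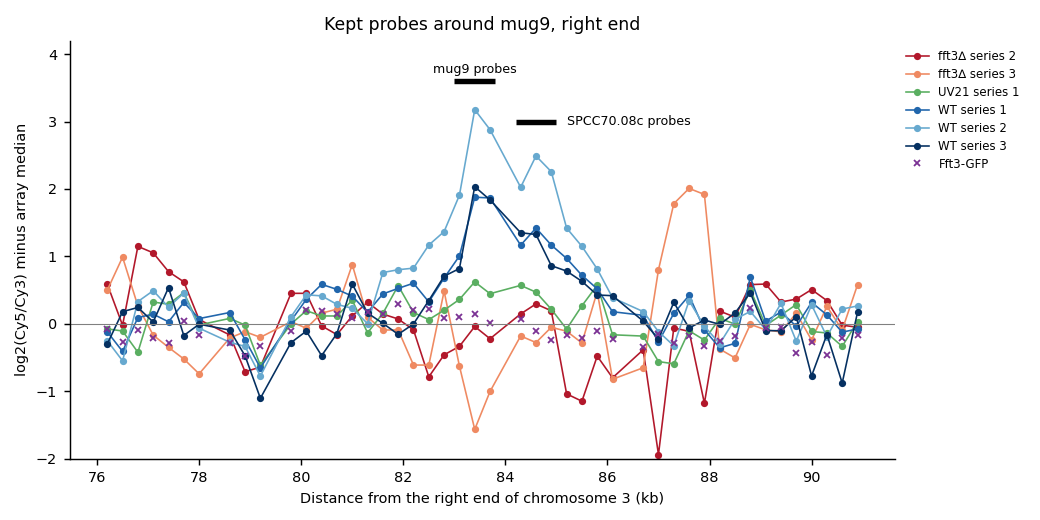
H3K9me2 (log2 Cy5/Cy3 minus the array median) of single kept probes around mug9 against distance from the right end of chromosome 3 (kb), for the fft3∆, UV21 and WT arrays and Fft3-GFP, with black bars over the probes of mug9 and SPCC70.08c. The WT arrays peak at 1.88 to 3.18 in mug9, and the fft3∆ arrays stay near or below 0 there. Outside mug9 the 2 fft3∆ arrays part at some probes, as at 2366100 with −0.11 and 2.01.

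Of the 171 genes with a probe at these ends, 119 had at least 2 kept probes and were tested, 60 of 63 protein-coding genes, 52 of 100 noncoding RNA genes and 7 of 7 rRNA genes. In fft3∆, 4 were called lower than in WT, against 4.68% of all 8674 genes tested, and 0 higher, against 0.0922%. At an unadjusted p under 0.05 limma counted 17, against 19.6% of all genes. Both fft3∆ arrays were below all WT arrays at 19 of the 119 genes, against 26.4% of all genes, and above all WT arrays at 14, against 11% of all genes. The median difference was −0.06 over the 119 genes and −0.10 over all genes. Beside mug9 and SPNCRNA.1292 the called genes were SPNCRNA.6680 and bcd1, both of the left end.

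SPNCRNA.6680 (− strand, 3 probes from 35700 to 36600), a noncoding RNA gene of the single-copy DNA next to the shared block, had −1.23 and −1.58 in fft3∆, −0.37 in UV21 and 0.02, −0.14 and −0.05 in WT (difference −1.35 ± 0.18, SE, limma, adjusted p = 0.0120). bcd1 (SPCC613.07, 3 probes from 91500 to 92700), which encodes a protein of snoRNA biogenesis, had −1.04 and −0.82 in fft3∆, 0.16 in UV21 and −0.06, 0.02 and −0.04 in WT (difference −0.90 ± 0.16, SE, limma, adjusted p = 0.0293). Unlike mug9, both genes were at the array median in WT and below it in fft3∆. The Cy3 level of SPNCRNA.6680 was low on all arrays, −1.96 and −2.29 in fft3∆, −1.70 in UV21 and −1.70, −1.95 and −2.44 in WT. Both calls were lost with another background correction, normexp, where the differences were −0.87 (limma, adjusted p = 0.222) and −0.64 (0.184). SPNCRNA.6680 was also lost without WT series 1 (adjusted p = 0.0712) and without WT series 3 (0.0656), and bcd1 without any one of the WT arrays (0.131, 0.142 and 0.101).

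The largest positive differences were not called. hsp3101 (SPCC757.03c), which encodes a glyoxylase, had −0.09 and 1.48 in fft3∆, 0.15 in UV21 and 0.22, −0.04 and −0.48 in WT (difference 0.79, limma, adjusted p = 0.403), so 1 fft3∆ array carried it. The overlapping SPNCRNA.1100 differed by 0.78 (limma, adjusted p = 0.407). SPNCRNA.6693 had 0.49 and −0.04 in fft3∆, −0.60 in UV21 and −0.49, −0.61 and −0.55 in WT (difference 0.78, limma, adjusted p = 0.0867). ecl1 (SPCC70.12c), an extender of chronological lifespan, had 0.65 and 0.63 in fft3∆, 0.06 in UV21 and 0.13, 0.04 and −0.15 in WT (difference 0.63 ± 0.17, SE, limma, adjusted p = 0.0881). SPNCRNA.7754 had 0.12 and 0.03 in fft3∆, −0.33 in UV21 and −0.39, −0.51 and −0.52 in WT (difference 0.55, limma, adjusted p = 0.113). At ecl1, SPNCRNA.6693 and SPNCRNA.7754 both fft3∆ arrays were above all WT arrays.

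The annotation lists added no further call beyond these. Of the 52 noncoding RNA genes tested, 2 were called lower, against 4.68% of all genes, and 9 had an unadjusted p under 0.05 (limma), against 19.6%, with a median difference of −0.04. Of the 6 genes whose product names a transporter or permease, 0 were called and 0 had an unadjusted p under 0.05 (limma; the same shares of all genes apply), with differences from −0.31 to 0.36. The nickel transporter gene nic1 (SPCC1884.02) had −0.22 and −0.26 in fft3∆, −0.40 in UV21 and −0.16, −0.18 and 0.07 in WT. SPCC757.11c, annotated as a transporter, had 0.24 and 0.33 in fft3∆, 0.20 in UV21 and 0.00, −0.08 and −0.14 in WT. SPCC569.05c of the spermidine transporter family had −0.17 and −0.50 in fft3∆, 0.02 in UV21 and −0.04, −0.11 and −0.18 in WT. The 1 pseudogene at these ends had too few kept probes to be tested. The 2 protein-coding genes nearest the right end, SPCC569.01c and SPCC569.03, both uncharacterized and in the shared block, differed by −0.18 each (limma, adjusted p = 0.709 and 0.733). SPNCRNA.7767, the next tested gene inwards, differed by 0.06 (limma, adjusted p = 0.959).

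UV21 gave no call at these ends. Of the 95 windows, 0 were called different from WT by limma (0% of all windows) and 1 had an unadjusted p under 0.05, against 4.23% of all windows. Of the 119 genes, 0 were called (0% of all genes) and 3 had an unadjusted p under 0.05, against 3.92%. The comparison has 1 UV21 array, which the fit assumes to vary like the other arrays.

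Fft3-GFP was measured on 1 array, with no replicate. It averaged 0.29 over the left and 0.36 over the right rDNA, against 0.05 and 0.06 beyond the rDNA. The rise lay in the intergenic spacer, with 0.67 over its 24 left probes, against 0.19 over the 18S gene, 0.11 over the 28S gene and −0.60 over the internal transcribed spacers. The window at 2000 to 3999 had 1.37 and was the 1 window of the 95 more than 2-fold above the array median, where 0.484% of all windows were. Its highest probe, 3000, had 1.87, and the same probe had H3K9me2 of 3.90 and 2.92 in fft3∆, 3.96 in UV21 and 3.08, 3.86 and 3.49 in WT. By probe, 7 of 55 in the left and 2 of 17 in the right rDNA were more than 2-fold above the median, against 1 of 195 and 0 of 227 beyond it.

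Among genes, SPNCRNA.6666 (1.11) and SPNCRNA.6673 (1.08) were the 2 of 119 with Fft3-GFP more than 2-fold above the median, where 0.219% of all genes were. Both lie in copies of the same spacer, so they are not separate readings. Next came SPNCRNA.6668 (0.86), the catalase gene ctt1 (SPCC757.07c, 0.55) and rpl35 (SPCC613.05c, 0.45), which encodes a protein of the large ribosomal subunit. At ctt1 H3K9me2 was −0.84 and −0.22 in fft3∆, 0.03 in UV21 and 0.21, 0.14 and 0.00 in WT, and its difference was not called (−0.65, limma, adjusted p = 0.170). At mug9 Fft3-GFP was 0.09, close to the array median. The spacer thus had the highest Fft3-GFP of these ends and the highest H3K9me2 in WT means, though not on WT series 2 and 3 singly, on arrays made from cells at different temperatures and with different fixation, and its H3K9me2 was 2.80 ± 0.31 (SD, n = 2) in fft3∆ and 2.71 ± 0.70 (SD, n = 3) in WT. Without WT series 3 the WT mean of the spacer was 2.31 and fft3∆ was above it by 0.49.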

How the data were processed

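Per the labels' protocols, random-primed PCR amplified both the precipitated and the input DNA before they were hybridised together. The values come from the 7 scanner files. Their processed signals are, per the file headers, spot intensity values with the local background subtracted and 1 linear dye factor applied per channel, and a further column holds the log10 ratio of the red to the green channel. In the value table deposited by the authors each number is a linear ratio of the processed channels, Cy5 over Cy3 (correlation with the scanner ratio 1, medians 0.932 to 0.991). Agilent Feature Extraction was used, per the file headers, in version 12.0.3.1 (WT series 1 and 2, UV21, Fft3-GFP), 10.7.3.1 (fft3∆ series 2) and 11.5.1.1 (series 3), with protocol 1105 for series 3 and 1200 for the rest. At these ends, 0 probes had a processed signal more than 0.1 (log2) away from the software's ratio.

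Log2 of processed Cy5 over Cy3 minus the array median was computed from the deposited intensities, without loess or quantile normalization. A probe was kept (33704) where all 6 H3K9me2 arrays had it well above background in Cy3 and none had it non-uniform. Windows of 2 kb with at least 3 and genes with at least 2 such probes entered 1 limma 3.58.1 fit of the whole genome (R 4.3.3, group as the only term, 6 arrays), adjusted after Benjamini-Hochberg and called under 0.05. End means were compared by exact 2-sided permutation over arrays. Python 3.11.15, numpy 2.4.6 and pandas 2.3.3 were used. The fits were also run on simulated windows. Their noise was independent between arrays, so they do not bear on calls that change when an array is left out.

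The build of the probe positions is not given in the sources used here. Genes of ASM294v3 (RefSeq) were placed by the shift of each arm that gave the highest correlation of GC content with Cy3 (160 bp and r = 0.256 on the left arm, −820 bp and r = 0.242 on the right arm), and without the rDNA the outer 100 kb matched best at 40 and −740 bp. The placement of the rDNA at the right end is therefore uncertain, and gene borders are uncertain by about a probe. Positions are those of the array except for printed sequences.

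Genes named were the 5 nearest each end, the 10 highest in WT, the 5 largest positive and negative differences, the 5 highest in Fft3-GFP, examples of lists taken by annotation, and fft3. Windows named were the 3 highest in WT at each end and those called. Members and lists were chosen with earlier results of these data known. Alternatives were other background correction, scaling, filters, window sizes, centring, blocks and arrays left out. Normexp (offset 50) was run on median signals in place of mean signals.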

Additional observations from a re-analysis of the deposited data

How the results depend on the processing

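The differences of the end means are within the spread of the arrays and depend on the summary and on WT series 3. With the median of the probes in place of their mean, fft3∆ minus WT was 0.13 at the left and 0.10 at the right end, and UV21 minus WT was 0.023 at the left end. Without WT series 3, fft3∆ minus WT at the left end was 0.019 and UV21 minus WT was 0.015. Leaving out 1 array at a time gave −0.16 to 0.019 for fft3∆ and −0.16 to 0.015 for UV21 at the left end, and −0.19 to −0.01 and −0.14 to −0.08 at the right end. The WT gap to chromosomes 1 and 2 was then −2.49 to −2.26 at the left and −2.80 to −2.48 at the right end, and its narrowing in fft3∆ 1.55 to 1.78 and 1.48 to 1.80. With saturated spots left out the gap was −1.86 and −1.91, and over the outermost 50 kb it was −3.08 and −3.89. The cause was not tested.

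Of the 2 called windows, 0 were called with windows of 5 kb, where 198 of all windows were lower and 3 higher. With the extraction protocol as a block 1 was called, where 260 of all 6193 windows were lower and 4 higher. The 4 called genes became 1 with normexp, where 315 of all 8674 genes were lower and 9 higher. Leaving out 1 array gave 0 to 12 windows and 0 to 15 genes. Without WT series 1 there were 0 windows and 0 genes (122 and 0 in the genome), and without WT series 3 there were 1 and 0 (140 lower and 10 higher windows and 1 gene in the genome). Without fft3∆ series 2, 6 windows were lower and 6 higher (672 and 127 of all 6193), with 7 and 8 genes (1108 and 207 of all 8674). Without fft3∆ series 3, 6 windows were lower (288 of all), with 10 genes lower and 2 higher (599 and 53 of all). These last fits have 1 fft3∆ array, assumed to vary like the others. For UV21 and for Cy3, 0 windows of these ends were called under each alternative run. Leaving out 1 array, SPRRNA.43 ranged from −1.20 (without WT series 1) to 0.11 (without WT series 3), SPRRNA.47 from −1.06 to 0.018 (without the same arrays), and SPNCRNA.6666 from −0.088 (without fft3∆ series 2) to 0.39 (without WT series 3). Beyond these, hsp3101 (1.58, limma, adjusted p = 0.0206) and SPNCRNA.1100 (1.55, 0.0267) passed without fft3∆ series 2, and SPNCRNA.6693 (1.04, 0.0284) without fft3∆ series 3.

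Replicate numbers name only the series. The deviations of the fft3∆ and WT arrays from their group means had correlations of −0.0013 in series 2 and −0.0432 in series 3. With the series as a replicate block, 2 windows and 1 gene were called lower, where 329 of all 6193 windows and 86 of all 8674 genes were. The end differences were then −0.16 (left) and −0.12 (right), the narrowing was 1.55 and 1.58, and SPNCRNA.6666 differed by −0.033. All probes of these ends were well above background in Cy3, while Cy5 was not filtered in this way. Gene calls changed with the background correction. Precision is limited by having only 7 arrays.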
